A study of Homo sapiens with 12 samples.

Results

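The 10 genes described here encode parts of the gp130, JAK and STAT3 route and of its feedback, namely STAT3, SOCS1, SOCS2, SOCS3, IL6ST, JAK1, JAK2, PIM1, BCL3 and JUNB. They were chosen by name, with earlier results of these data known. All 10 were among the 35579 genes of the deposited transcript estimates and among the 15098 genes that passed the filter on low counts. Their estimated counts were summed over transcripts, and STAT3 was also described by transcript. All cells were WM-266-4, a human melanoma line, with a stable lentiviral knock-down of TYRO3, a receptor tyrosine kinase, kept in 1 μg/ml puromycin. They were transfected with pEZY-myc-his plasmids for GFP (the control), TYRO3 wild-type (WT), TYRO3 ΔGS with the change I449A, or TYRO3 ΔADAM with the changes P408A, L409P and G419P. All were serum starved overnight. The change in ΔGS is at the site cut by gamma-secretase and those in ΔADAM at sites that the study predicted to be cut by ADAM proteases. Each of 3 experiments gave 1 library per group, so each group holds 3 libraries of 12. The groups are transient transfectants of a single knock-down line, the expression comes from the plasmid, and the study describes the control as an empty vector whereas the labels name GFP. The comparisons ask which genes move with full-length TYRO3 and which need its cleavage.

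STAT3 is a transcription factor that waits in the cytoplasm until it is phosphorylated, classically by a JAK kinase bound to a cytokine receptor. It then pairs with a second STAT3 molecule through their SH2 domains and acts in the nucleus. IL6ST encodes gp130, the receptor chain shared by the cytokines of the interleukin-6 family, and JAK1 and JAK2 are kinases that bind such receptors. SOCS proteins are made in response and shut the route down, by blocking JAK activity or by sending receptors to degradation, so their mRNA is often read as an output of STAT signaling. PIM1, BCL3 and JUNB are known transcriptional targets, but JUNB and SOCS3 also respond to other routes such as MAPK signaling. In melanoma, STAT3 is best known for its links to survival and invasion.

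The STAT3 gene makes a long alpha form and a short beta form that differ at 1 splice site. Both sequences of the junction are shown because the STAT3 counts are split by form further on. They were read from GENCODE 29 (GRCh38), where STAT3 (ENSG00000168610) lies on chromosome 17 from 42313324 to 42388568 on the minus strand, and they are written 5′ to 3′. The capitals mark the 50 bases at the start of exon 23 of 24, chr17:42316852-42316901, that alpha holds and beta skips.
STAT3-201, alpha: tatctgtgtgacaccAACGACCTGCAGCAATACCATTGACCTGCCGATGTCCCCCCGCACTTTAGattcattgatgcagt
STAT3-211, beta: tatctgtgtgacaccattcattgatgcagt
Both stretches are coding sequence. Without the 50 bases the reading frame shifts and the beta form ends at a stop codon that starts at 42316829 when read on the minus strand, whereas alpha reads on to 42315747. The annotated coding sequences hold 770 codons for alpha and 722 for beta, so the beta form lacks the C-terminal transactivation domain.

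The total of estimated counts was 4008293 in the control library of experiment 1 and between 18365999 and 38184838 in the other 11 libraries. Levels are given in CPM, counts scaled to the size of each library. TYRO3 was at 47.3 to 56.6 CPM in the control libraries and at 1181 to 3694 in the 9 construct libraries. The 3 construct libraries of experiment 1 held the highest TYRO3 levels, from 3064 to 3694 CPM. Melanocytic markers were present (8 of 8 had a median over 1 TPM, a level scaled by transcript length, and a summed level of 1643 to 1989 TPM in the control libraries and 1068 to 1987 in the construct libraries). Keratinocyte markers (0 of 3 over 1 TPM, KRT5 and KRT1 at 0) and endothelial markers (0 of 3) were near 0. Of 4 white blood cell markers only CD68 was above 1 TPM (31.7 to 52.6), CD3E had a median of 0, and PTPRC was at most 0.562. The share of mitochondrial counts was 6.25% to 8.25% in experiment 1 and 4.27% to 6.01% in the other experiments. In the ΔGS library of experiment 3, transcripts of STAT3 and IL6ST were split unlike in the other libraries, as described below for each gene.

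The 10 genes covered a wide range of levels. Expressed per length, in TPM, the control libraries ranged from 57.0 to 76.1 for STAT3, the highest of the 10. IL6ST followed at 33.1 to 37.8 TPM, SOCS2 at 19.7 to 22.8 and JAK1 at 18.0 to 22.2. The order then ran through JUNB (9.27 to 25.1 TPM), SOCS3 (8.93 to 16.5), BCL3 (9.68 to 13.0), PIM1 (4.43 to 13.5) and JAK2 (3.72 to 6.53). SOCS1 was last, at 0 to 0.793 TPM. Neighbors in this order overlapped in their ranges from SOCS2 down to JAK2, so only the places of STAT3, IL6ST and SOCS1 were separate from those of their neighbors in every control library. The place of IL6ST holds for TPM only, since short transcripts described below made up 72.8% to 77.8% of its TPM in the controls. In CPM, IL6ST (31.5 to 39.0) lay below JAK1 (56.8 to 59.3) in the control libraries.

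With the TYRO3 constructs, SOCS1, SOCS3, BCL3 and JUNB lay above the controls, SOCS2 and PIM1 lay above the control of their own experiment but overlapped the other controls, and JAK1 and JAK2 overlapped the controls. SOCS1, SOCS2, SOCS3, PIM1, BCL3 and JUNB, 6 of the 10 genes, were higher in 9 of 9 construct libraries than in the control library of the same experiment, which was the case for 12.7% of all genes tested. For 4 of them, SOCS1, SOCS3, BCL3 and JUNB, all 9 construct libraries were above all 3 control libraries, against 5.03% of all genes tested. Both tallies include SOCS1, which passed the filter on low counts through the construct libraries, so that a higher value there was favored in advance. STAT3 was the 1 member lower in 9 of 9, against 13.8% of all genes, and 0 members had all construct libraries below the controls, against 5.21%. In bulk RNA, more cells with a transcript and more of it per cell cannot be told apart. The sharing of 1 control library among 3 construct libraries means that these counts of 9 rest on 3 controls. Because the members were chosen with earlier results of these data known, the shares of all genes are given for scale and test no excess.

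**Figure D1:**
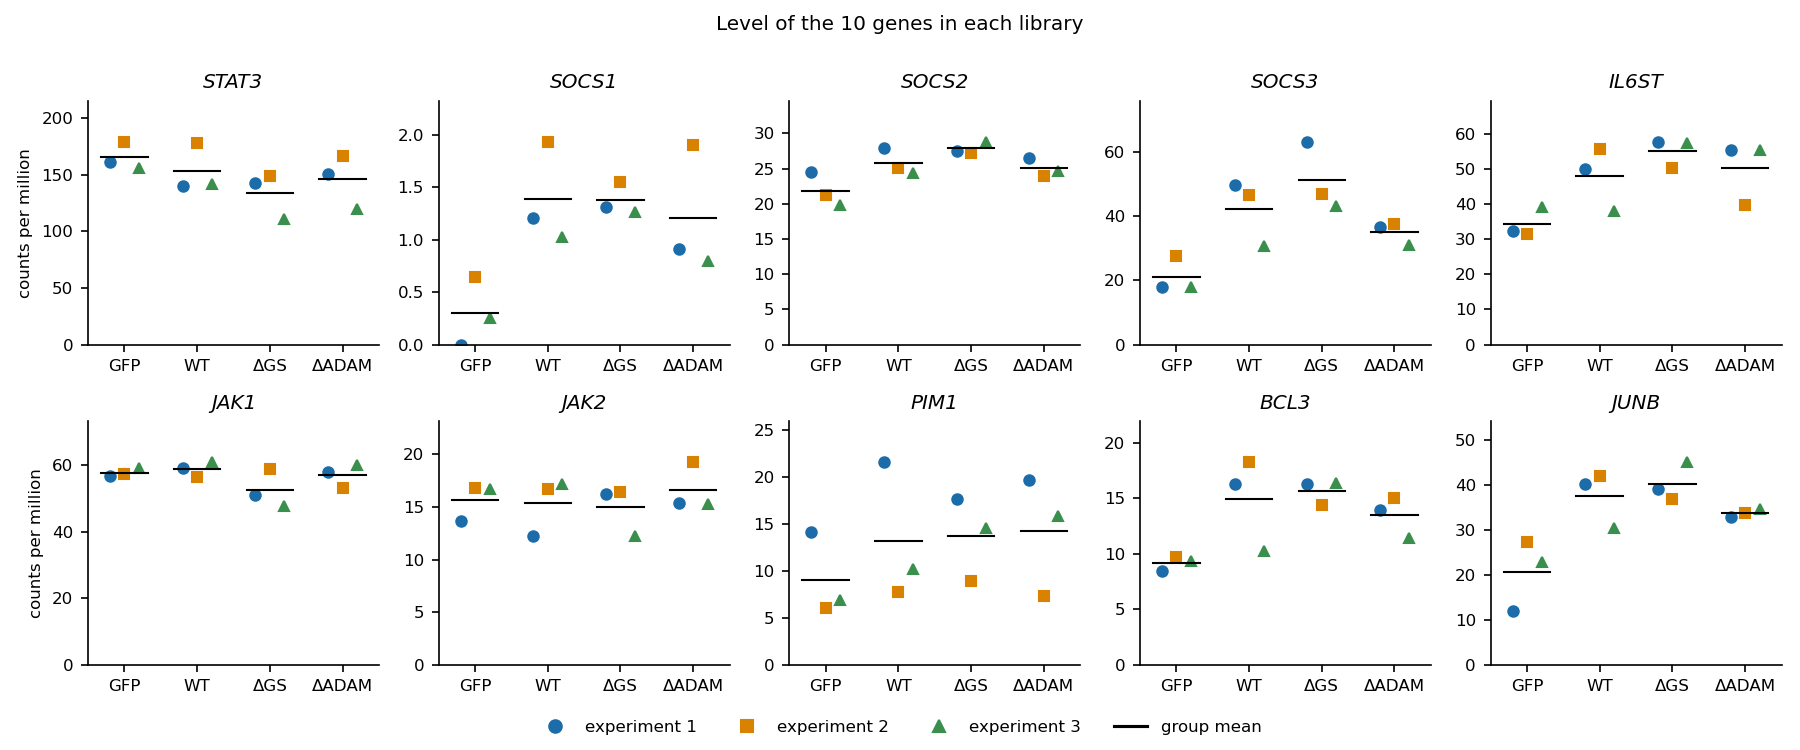
CPM (linear axis from 0) of the 10 genes in the 12 libraries, by transfected construct, with the experiment as color and symbol and the group mean as a line. For SOCS1, SOCS3, BCL3 and JUNB the 9 construct libraries lie above the 3 control libraries, while the groups of JAK1 and JAK2 overlap.

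Calls needed a fold change above 1.5 together with a Benjamini-Hochberg adjusted p of at most 0.05, over all genes, in edgeR's quasi-likelihood test. Values are given from 2 designs. The first holds a term for experiment 1 against experiments 2 and 3, after the batch correction of the study, and the second (the block) holds a term for each experiment, since the labels mark the libraries that share one.
With the first design, 1 of 10 members was called with ΔGS TYRO3 (0.457% of all genes were), 0 with WT TYRO3 (0.0397%) and 0 with ΔADAM TYRO3 (1.11%). At an unadjusted p under 0.05 there were 7, 6 and 7 members, respectively, against 19.2%, 15.2% and 20.4% of all genes. With the block, 5 members were called with ΔGS TYRO3 (4.69% of all genes), 2 with WT TYRO3 (2.35%) and 3 with ΔADAM TYRO3 (5.19%), and all of these were higher. SOCS1, for which the filter favored this direction, is among those called with the block in each comparison. DESeq2 with the first design called 5 with ΔGS, 4 with WT and 2 with ΔADAM TYRO3, against 4.03%, 2.49% and 4.44% of all genes. The median log2 fold change of the 10 members in the first design was 0.51 with WT, 0.68 with ΔGS and 0.53 with ΔADAM TYRO3, against 0.00, 0.01 and 0.00 over all genes tested. Given how the members were chosen, these counts and medians describe the 10 genes and test no excess over all genes. Without the shallow control library of experiment 1, the block called 1 member with WT (0.966% of all genes), 2 with ΔGS (1.75%) and 0 with ΔADAM TYRO3 (1.88%), and the first design called 0 in each (0.00652% of all genes in each). The libraries share an experiment but no source names separate cultures, so p-values measure the spread between these libraries.

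**Figure D2:**
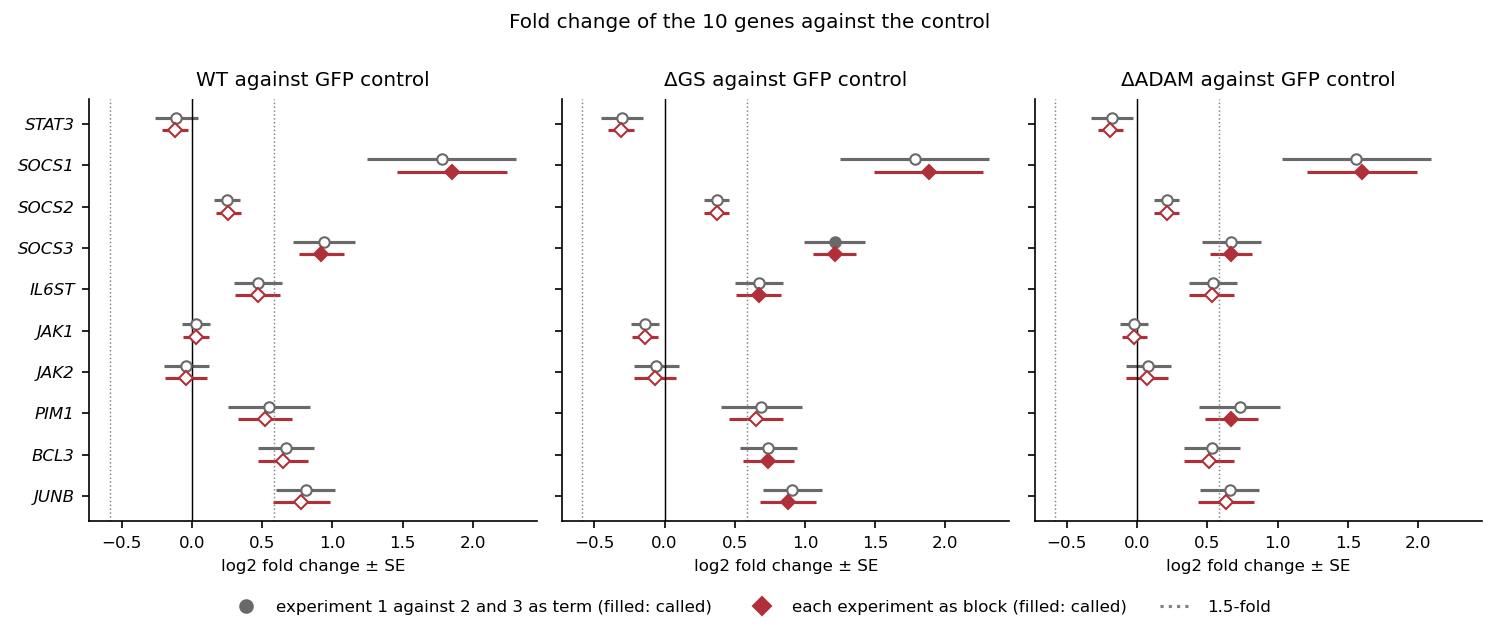
Log2 fold change with its standard error (SE) of each gene against the GFP control for WT, ΔGS and ΔADAM TYRO3, with circles for the first design and diamonds for the block. Filled symbols were called. SOCS3 was called in all 3 comparisons with the block and with ΔGS TYRO3 in both designs.

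SOCS3 (ENSG00000184557, chromosome 17 from 78356778 to 78360077, minus strand), which encodes the inhibitor that binds gp130 and JAKs, was the member with the firmest change. Its control libraries held 17.9, 27.5 and 18.1 CPM in experiments 1, 2 and 3. With WT TYRO3 the values were 49.6, 46.7 and 30.8 CPM. With ΔGS TYRO3 they were 63.2, 47.0 and 43.2 CPM, and with ΔADAM TYRO3 36.6, 37.5 and 31.0 CPM. No construct library overlapped the controls, and in each experiment ΔGS TYRO3 gave the highest value. The log2 fold change with ΔGS TYRO3 was 1.21 (SE 0.22, 2.31-fold, adjusted p = 0.0471 from edgeR), and with the block it was 1.21 (SE 0.15, adjusted p = 0.00246, edgeR). With WT TYRO3 it was 0.94 (SE 0.22, adjusted p = 0.117, edgeR), and the block gave 0.92 with adjusted p = 0.0137 (edgeR). With ΔADAM TYRO3 it was 0.67 (SE 0.21, adjusted p = 0.112, edgeR), and the block gave 0.67 with adjusted p = 0.0245 (edgeR). In the first design the call with ΔGS TYRO3 was kept in 2 of the 12 fits that each left out 1 library, with log2 fold changes from 1.05 to 1.51, and in the block it was kept in 12 of 12, from 1.07 to 1.40. The block lost its call with WT TYRO3 without the WT library of experiment 1 or 2, and that with ΔADAM TYRO3 without any 1 ΔADAM library or the control of experiment 1 or 3. The first design kept its call only without the WT library of experiment 1 or of experiment 3. The ratio to the control of the same experiment was largest in experiment 1, between 2.05-fold and 3.54-fold, and lay between 1.36-fold and 2.39-fold in experiments 2 and 3. The control of experiment 1 was the shallowest library (68 counts of SOCS3) and TYRO3 was highest in the constructs of that experiment, and the part of either in the larger ratios was not tested.

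SOCS1 (ENSG00000185338, chromosome 16 from 11254405 to 11256200, minus strand), which encodes a direct inhibitor of JAK catalytic activity that interferons also induce, was scarce. The control libraries held 0, 24 and 5 estimated counts, which is 0, 0.647 and 0.253 CPM. The values in experiments 1, 2 and 3 were 1.21, 1.93 and 1.02 CPM with WT TYRO3, 1.31, 1.55 and 1.27 CPM with ΔGS TYRO3, and 0.915, 1.90 and 0.800 CPM with ΔADAM TYRO3. Thus the 9 construct libraries, with 22 to 43 counts, lay above the 3 control libraries in CPM, though not in counts before scaling. A control count of 24 is the only one above the minimum of 10, so the gene passed the filter through the construct libraries and a difference in this direction was favored by the filter. In experiments 2 and 3 the ratio to the control of the same experiment was 2.39-fold to 5.02-fold. In experiment 1, where the control was at 0 and a floor of 3 counts in that library equals 0.789 CPM, it was at least 1.53-fold with WT, 1.66-fold with ΔGS and 1.16-fold with ΔADAM TYRO3. The fitted log2 fold changes were 1.78, 1.78 and 1.56 (SE 0.53 each, adjusted p = 0.166, 0.108 and 0.129 from edgeR) and with the block 1.85, 1.88 and 1.60 (adjusted p = 0.0326, 0.018 and 0.0286, edgeR). These fitted values depend on how the count of 0 is treated. In the block, the call with ΔGS TYRO3 was lost without the ΔGS library of experiment 1 or the control of experiment 3. The call with WT TYRO3 was lost without any 1 control, the WT library of experiment 1 or 2, or the ΔADAM library of experiment 1, and the call with ΔADAM TYRO3 without any 1 control or ΔADAM library. SOCS1 lies over the gene RMI2 on the other strand, whose group means were 19.0 to 24.4 CPM, and whether strand was used in the counting is not stated.

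SOCS2 (ENSG00000120833, chromosome 12 from 93569814 to 93583487, plus strand), an inhibitor best known for restraining growth hormone signaling through STAT5, was higher by less than 1.5-fold. Its levels in experiments 1, 2 and 3 were 24.5, 21.2 and 19.8 CPM in the controls and 28.0, 25.0 and 24.4 with WT TYRO3. ΔGS TYRO3 gave 27.5, 27.3 and 28.8 CPM and ΔADAM TYRO3 26.5, 24.0 and 24.6. Every construct library was above its own control, but 2 of 9 were below the control of experiment 1. The log2 fold changes were 0.25, 0.37 and 0.21 (SE 0.09 each) for WT, ΔGS and ΔADAM TYRO3. Only ΔGS TYRO3 with the block reached an adjusted p under the threshold (0.0292, edgeR), and at 1.29-fold it was not called.

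JUNB (ENSG00000171223, chromosome 19 from 12791496 to 12793315, plus strand), an AP-1 subunit made early after stimulation, rose with ΔGS TYRO3 with the block. The control libraries held 12.1, 27.3 and 23.0 CPM in experiments 1, 2 and 3. The values were 40.4, 42.2 and 30.4 CPM with WT TYRO3, and 39.1, 36.9 and 45.2 for ΔGS TYRO3. ΔADAM TYRO3 gave 33.0, 33.8 and 34.7 CPM. No construct library overlapped the controls, and the control of experiment 1 was the lowest of the 12 libraries. The log2 fold change with ΔGS TYRO3 was 0.91 (SE 0.21, adjusted p = 0.0644, edgeR) and with the block 0.88 (SE 0.20, adjusted p = 0.0242, edgeR). With WT TYRO3 it was 0.81 and with ΔADAM TYRO3 0.66, and neither was called in either design (adjusted p with the block 0.0571 and 0.0692, edgeR). The call was lost without the control or the ΔGS library of experiment 1 or of experiment 3. The ratio to the own control was 2.73-fold to 3.34-fold in experiment 1 and 1.24-fold to 1.97-fold in the others, as for SOCS3. JUNB is overlapped on the other strand by HOOK2, at 15.3 to 20.6 CPM over the 12 libraries.

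BCL3 (ENSG00000069399, chromosome 19 from 44747705 to 44760044, plus strand), an IκB family protein that works with NF-κB subunits in the nucleus, was also higher in each construct library than in any control. The controls held 8.42, 9.71 and 9.40 CPM, a narrow range. With WT TYRO3 the values were 16.3, 18.3 and 10.3 CPM, for ΔGS TYRO3 16.3, 14.4 and 16.4, and for ΔADAM TYRO3 14.0, 15.1 and 11.4. The WT library of experiment 3 was the closest to its control, at 1.10-fold. BCL3 was called with ΔGS TYRO3 with the block (log2 fold change 0.74, SE 0.18, adjusted p = 0.0279, edgeR), where the first design gave 0.74 with adjusted p = 0.0887 (edgeR). The log2 fold changes with WT and ΔADAM TYRO3 were 0.67 and 0.53 (adjusted p = 0.169 and 0.17, edgeR) and were not called with the block either. The call with ΔGS TYRO3 was lost without any 1 control or without the ΔGS library of experiment 1 or 3, and without the WT library of experiment 3 BCL3 was called in the first design too.

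PIM1 (ENSG00000137193, chromosome 6 from 37170203 to 37175426, plus strand), a survival kinase whose activity is set mainly by its amount, varied more between experiments than between groups. In experiments 1, 2 and 3 it was at 14.2, 6.07 and 6.93 CPM in the controls and at 21.6, 7.74 and 10.3 with WT TYRO3. It was at 17.7, 8.93 and 14.6 CPM with ΔGS TYRO3 and at 19.7, 7.37 and 15.9 with ΔADAM TYRO3. Each construct library exceeded its own control, by 1.22-fold to 2.29-fold, but the control of experiment 1 lay above 4 construct libraries of other experiments. The block called it with ΔADAM TYRO3 (log2 fold change 0.67, SE 0.19, adjusted p = 0.0463, edgeR), while the first design gave 0.73 (SE 0.29, adjusted p = 0.182, edgeR). With ΔGS TYRO3 the block gave 0.65 (adjusted p = 0.055, edgeR) and with WT TYRO3 0.52 (adjusted p = 0.144, edgeR). The call with ΔADAM TYRO3 was kept in 4 of the 12 fits with 1 library left out, and lost without any 1 control, the ΔGS library of experiment 1 or 2, the WT library of experiment 2, or the ΔADAM library of experiment 1 or 3.

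**Figure D3:**
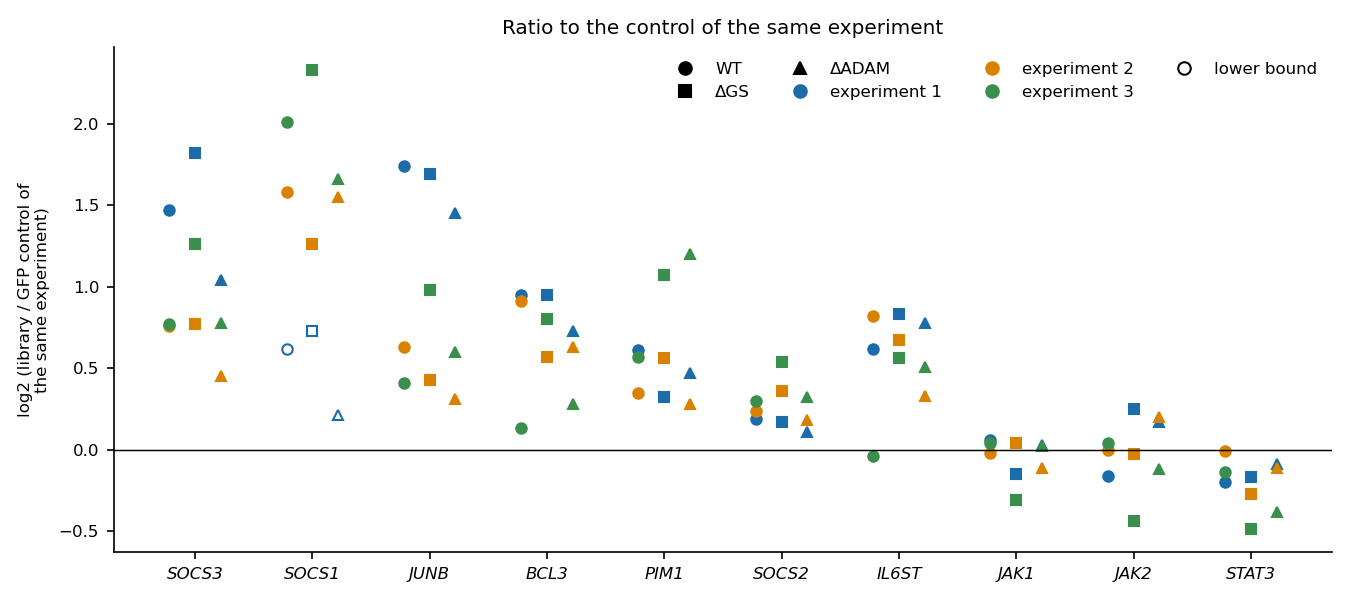
Log2 ratio of each construct library to the GFP control library of the same experiment, by gene, with the construct as symbol and the experiment as color; open symbols for SOCS1 are lower bounds against a control at 0. The ratios of SOCS3 and JUNB are largest in experiment 1, and the 9 ratios of STAT3 lie from -0.49 to -0.01.

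Among the receptor and its kinases, IL6ST (ENSG00000134352, chromosome 5 from 55935095 to 55994993, minus strand) was called with ΔGS TYRO3 in the block, and JAK1 and JAK2 were called in no comparison of either design. IL6ST was at 32.3, 31.5 and 39.0 CPM in the controls of experiments 1, 2 and 3 and at 49.9, 55.5 and 38.0 with WT TYRO3. With ΔGS TYRO3 the values were 57.7, 50.1 and 57.4 CPM, and with ΔADAM TYRO3 55.4, 39.6 and 55.4. The WT library of experiment 3 was the 1 of 9 that was not above its control. The log2 fold change with ΔGS TYRO3 was 0.67 (SE 0.17, adjusted p = 0.0762, edgeR), called with the block (0.67, SE 0.16, adjusted p = 0.0316, edgeR). With WT and ΔADAM TYRO3 it was 0.47 and 0.54, not called in either design. On the TPM scale the direction with ΔGS TYRO3 was the opposite, with a log2 difference of -0.42 at a pseudocount of 1 (SE 0.44, adjusted p = 0.664 from limma). That sign came from experiment 3, where ΔGS TYRO3 gave 9.03 TPM against 33.1 in the control. In experiments 1 and 2 ΔGS TYRO3 was above its control on this scale too (42.1 against 37.5 and 48.5 against 37.8 TPM).

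The 2 scales part over IL6ST-215 and IL6ST-211, short transcripts of 479 and 418 bases annotated as retained introns, which weigh heavily per length. In the control libraries they took 14.3% to 21.9% of the estimated counts of IL6ST but 72.8% to 77.8% of its TPM. In the ΔGS library of experiment 3 both were listed at 0, and the TPM of the gene was 9.03 there, against 33.1 to 55.8 in the other 11 libraries. The other IL6ST transcripts together were at 8.31, 10.3 and 7.67 TPM in the controls and at 17.9, 16.3 and 10.4 with WT TYRO3. They were at 21.4, 16.9 and 9.03 TPM with ΔGS TYRO3 and at 20.4, 13.8 and 11.6 with ΔADAM TYRO3, above the control of the same experiment in each library. Without that ΔGS library the block did not call IL6ST with ΔGS TYRO3, nor did it without any 1 of the other ΔGS libraries or of the controls. The pseudogene IL6STP1, which can share reads, held at most 8 counts in any library.

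JAK1 (ENSG00000162434, chromosome 1 from 64833229 to 64966504, minus strand) was at 56.8, 57.4 and 59.3 CPM in the controls. It was at 59.4, 56.6 and 61.1 CPM with WT TYRO3, at 51.0, 59.0 and 47.9 with ΔGS TYRO3 and at 58.0, 53.1 and 60.1 with ΔADAM TYRO3. JAK2 (ENSG00000096968, chromosome 9 from 4984390 to 5128183, plus strand) was at 13.7, 16.8 and 16.7 CPM in the controls. It was at 12.2, 16.7 and 17.2 CPM with WT TYRO3, at 16.3, 16.5 and 12.3 with ΔGS TYRO3 and at 15.3, 19.3 and 15.3 with ΔADAM TYRO3. The groups overlapped for both kinases. The log2 fold changes of JAK1 were 0.03, -0.14 and -0.02 (SE 0.10 each) and those of JAK2 -0.04, -0.06 and 0.08 (SE 0.16 each). Both genes are overlapped by genes on the other strand, and JAK2 also by genes on its own strand.

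STAT3 mRNA was slightly lower with each construct. The control libraries of experiments 1, 2 and 3 held 161, 179 and 156 CPM. With WT TYRO3 the values were 141, 178 and 142 CPM, for ΔGS TYRO3 143, 149 and 111, and for ΔADAM TYRO3 151, 167 and 120. Each of the 9 values was below its own control, and 7 of the 9 were below all 3 controls. The WT library of experiment 2 differed from its control by a log2 ratio of -0.01, and the ΔGS library of experiment 3 by -0.49. The log2 fold changes were -0.11 with WT, -0.30 with ΔGS and -0.18 with ΔADAM TYRO3 (SE 0.15 each, adjusted p = 0.795, 0.319 and 0.558 from edgeR). With the block, ΔGS TYRO3 gave -0.31 (SE 0.09, adjusted p = 0.051, edgeR), so no difference in STAT3 was called. These are mRNA levels, and the phosphorylation of STAT3 is not measured by them.

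By transcript, 4 of the 14 STAT3 transcripts held at least 5% of its counts on average. STAT3-201, the alpha form of 5047 bases, held 71.1%, STAT3-203, which reads to the alpha stop codon in 769 codons, 12.2%, STAT3-211, the beta form, 7.86%, and STAT3-213, a shorter transcript with all 770 alpha codons, 7.13%. STAT3-201 took 64.3% to 78.7% of the counts in 11 libraries and 89.7% in the ΔGS library of experiment 3, where STAT3-203 was at 5.17% and STAT3-213 at 0.582%. In the shallow control of experiment 1, STAT3-213 was lower still, at 0%. STAT3-203 took 25.3% in the control of experiment 1 and 13.2% and 17.7% in the other controls, against 5.17% to 15.3% with the constructs. Of 69182 transcripts tested, no STAT3 transcript was called against control in either design. The smallest unadjusted p in the first design was that of STAT3-203 with ΔGS TYRO3 (log2 fold change -1.23, SE 0.44, unadjusted p = 0.0197, adjusted p = 0.745 from edgeR). For STAT3-201 the log2 fold changes were -0.05, -0.14 and -0.03 (SE 0.12 each).

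The share of coding STAT3 counts that ended at the beta stop codon did not separate the groups. It was 5.78%, 9.82% and 9.27% in the controls, 7.75%, 9.12% and 8.18% with WT TYRO3, 9.88%, 10.0% and 3.35% for ΔGS TYRO3, and 8.85%, 6.63% and 6.88% for ΔADAM TYRO3. The lowest and the highest value both belonged to ΔGS TYRO3. The means were 8.29% ± 2.19 (SD, n = 3) in the controls and 7.85% ± 2.07 (SD, n = 9) with the constructs, a difference of -0.44 percentage points (two-sided exact permutation test, p = 0.782). The design could reach a p of 0.00455. These shares are kallisto's split of reads among transcripts that share much of their sequence. The annotated lengths differ as well, at 5047 bases for STAT3-201 and 3319 for STAT3-211. The split therefore rests on reads over the junction and on reads in stretches that only some of the transcripts hold.

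**Figure D4:**
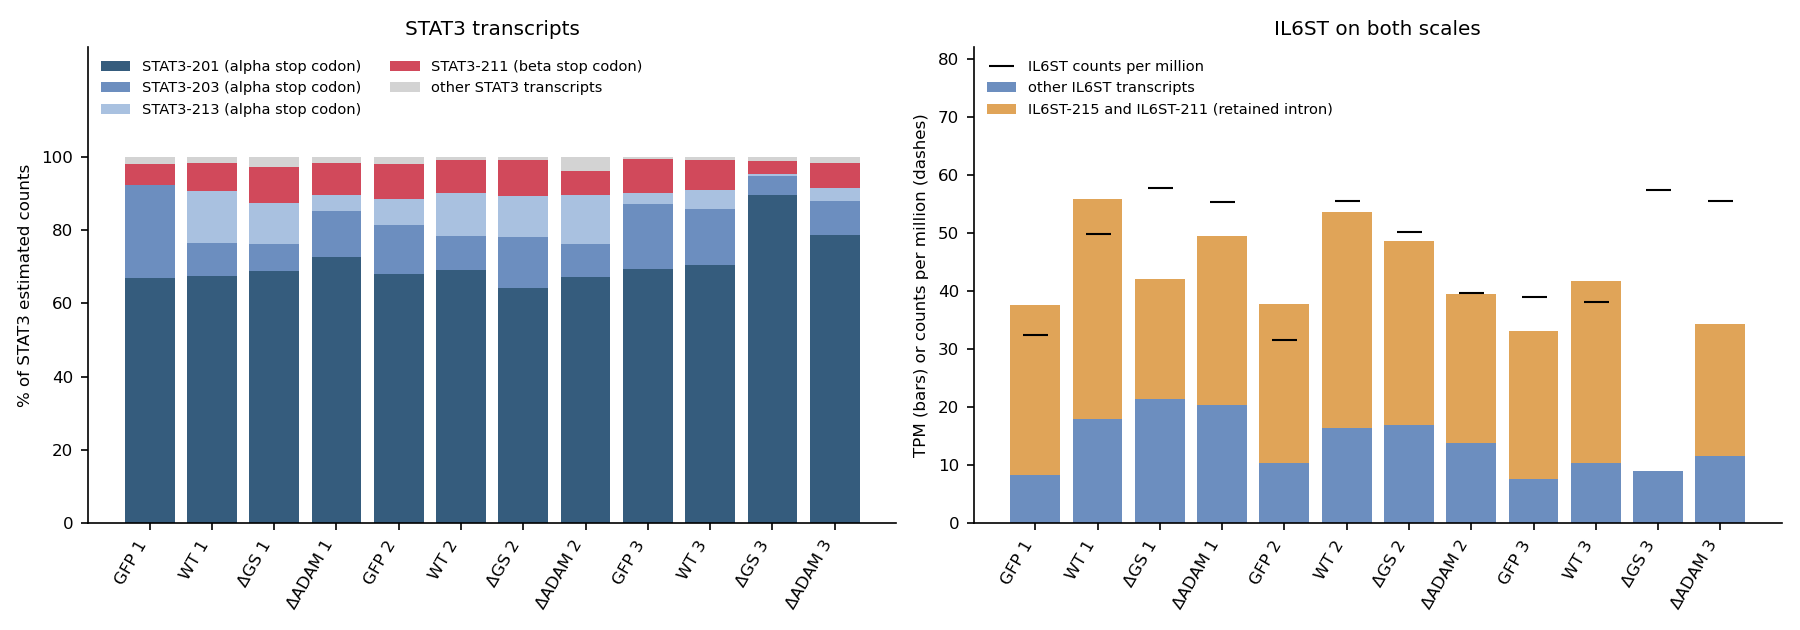
Left, percent of the STAT3 estimated counts by transcript in each library, where numbers after the construct are experiments. Right, TPM of IL6ST as stacked bars, split into the short retained-intron transcripts IL6ST-215 and IL6ST-211 and the others, with the CPM of the gene as dashes. In ΔGS 3 STAT3-201 holds 89.7% and the short IL6ST transcripts are listed at 0.

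The cleavage-resistant variants were compared with WT TYRO3 and with each other over the 10 genes. For WT TYRO3 against both variants averaged, 0 members were called in edgeR (0% of all genes tested, 119 of which had an unadjusted p under 0.05), 0 members had an unadjusted p under 0.05, and DESeq2 called 0 members. The difference in SOCS3 was a log2 value of -0.02 with the block (95% interval -0.30 to 0.26) and in JUNB 0.02 (-0.34 to 0.38). For SOCS1 it was 0.10, with the widest interval of the 10, -0.50 to 0.71. For STAT3 it was 0.14 (-0.03 to 0.30). For ΔGS against ΔADAM TYRO3, 0 members were called too (0% of all genes tested, 119 with an unadjusted p under 0.05, and 0 members in DESeq2). There SOCS3 was the 1 member with an unadjusted p under 0.05, higher with ΔGS TYRO3 in 3 of 3 experiments (log2 difference 0.54 with the block, 95% interval 0.22 to 0.86, unadjusted p = 0.00346 and adjusted p = 1 from edgeR). The intervals of the other 9 members included 0.

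The other genes of the pathway were read from fixed lists, which were also chosen with earlier results of these data known. In the interleukin-6 family of cytokines, 5 of 8 genes were tested and 1 was called, IL6 itself. IL6 was at 1.05 to 1.48 CPM in the controls, 3.60 to 11.0 with WT, 4.29 to 13.1 with ΔGS and 3.84 to 11.2 with ΔADAM TYRO3. Its log2 fold change was 1.90 (SE 0.31, adjusted p = 0.06), 2.02 (SE 0.31, adjusted p = 0.0379) and 1.80 (SE 0.30, adjusted p = 0.0351, edgeR for all 3), and the block called it in all 3. All construct libraries lay above the controls, while the ranges of the 3 constructs overlapped each other. The median log2 fold change of the 5 cytokines was 0.71, 0.77 and 0.81, with 4 of 5 positive in each comparison and CNTF negative. OSM, CTF1 and IL27 were too low to be tested.

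Of 6 receptor chains that pair with gp130 or resemble it, 4 were tested and IL27RA, the specific chain of the interleukin-27 receptor, was called in all 3 comparisons with the block. It was at 12.1 to 14.5 CPM in the controls and at 16.0 to 30.9 with the constructs (log2 fold change with the block 0.73, 0.78 and 0.74, adjusted p = 0.0452, 0.0212 and 0.0242, edgeR). The first design called none of the 4 (IL27RA adjusted p = 0.117, 0.06 and 0.0603, edgeR). The medians of the list were 0.00, -0.03 and 0.02.

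Among 7 other JAKs and STATs, 6 were tested and 1 was called in the first design, STAT5A with ΔGS TYRO3. STAT5A, which acts downstream of cytokine and growth hormone receptors, was at 27.1 to 28.9 CPM in the controls and at 37.9 to 42.6 with the constructs. Its log2 fold change with ΔGS TYRO3 was 0.59 (SE 0.08, adjusted p = 0.0292, edgeR), and with WT and ΔADAM TYRO3 it was 0.51 and 0.50, below the fold threshold. The block called STAT2, which acts in type I interferon signaling, in all 3 comparisons, with log2 fold changes of 0.61, 0.67 and 0.71. TYK2, JAK3, STAT5B and STAT6 were not called. The medians of the list were 0.30, 0.12 and 0.23.

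Of 13 other inhibitors (CISH, SOCS4 to SOCS7, the PIAS proteins and phosphatases), all were tested and 0 were called in either design. SOCS7 (mean log2 fold change 0.48) and PTPN6 (0.38) had the largest mean values. The medians of the list were 0.00, -0.09 and -0.03.

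Among 18 other STAT3 targets, 14 or 15 were positive in each comparison and the medians were 0.32, 0.39 and 0.47. In the first design 0 were called with WT, 2 with ΔGS and 3 with ΔADAM TYRO3, and with the block 3, 5 and 6, all higher. CCND1, which encodes cyclin D1, was at 444 to 534 CPM in the controls and 664 to 1124 with the constructs, and was called with ΔGS and ΔADAM TYRO3 (log2 fold change 0.78 and 0.87, adjusted p = 0.0423 and 0.0334, edgeR). IRF1, a transcription factor induced by interferon, was at 7.08 to 10.8 CPM in the controls and 15.9 to 37.1 with the constructs, and was called with ΔGS and ΔADAM TYRO3 (1.70 and 1.67, adjusted p = 0.0379 and 0.0334, edgeR). VEGFA, the angiogenic growth factor, was called with ΔADAM TYRO3 (1.45, adjusted p = 0.0469, edgeR). The block added CEBPD in all 3 comparisons, BCL2L1 with ΔGS and ΔADAM TYRO3 and CEBPB with ΔADAM TYRO3. It also called CCND1 and IRF1 with WT TYRO3 (0.79 and 1.40, adjusted p = 0.00839 and 0.00105, edgeR). VEGFA was called by the block with ΔGS TYRO3 too (1.27, adjusted p = 0.0202, edgeR). FOS, MYC, BIRC5 and HIF1A, which are also counted as STAT3 targets, had values from -0.43 to 0.07 and were not called.

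Of 9 other early response genes, 0 were called in the first design. With the block 0 were called with WT TYRO3, FOSL1, EGR1 and ATF3 with ΔGS TYRO3, and FOSL1, FOSL2 and ATF3 with ΔADAM TYRO3. The medians were 0.41, 0.55 and 0.54 in the first design. JUN and JUND, the relatives of JUNB, had log2 fold changes from -0.23 to 0.05 and were not called.

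The 10 interferon-stimulated genes had the largest medians of the 7 lists, and they are set beside the SOCS genes because interferons induce SOCS1 too. All 10 were positive in each comparison, with medians of 1.53, 1.92 and 1.64. The first design called 0, 0 and 1 (CXCL10 with ΔADAM TYRO3, 2.79, adjusted p = 0.0465, edgeR), and the block called 9 of 10 in each comparison, all but IRF7. OAS1 was at 0 to 2.94 CPM in the controls and 4.70 to 37.8 with the constructs, and MX1 at 15.3 to 130 and 127 to 529, respectively. With a control at 0, OAS1, like SOCS1, passed the filter on low counts through the construct libraries, so a higher value there was favored in advance. The part of this response in the SOCS genes was not tested.

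**Figure D5:**
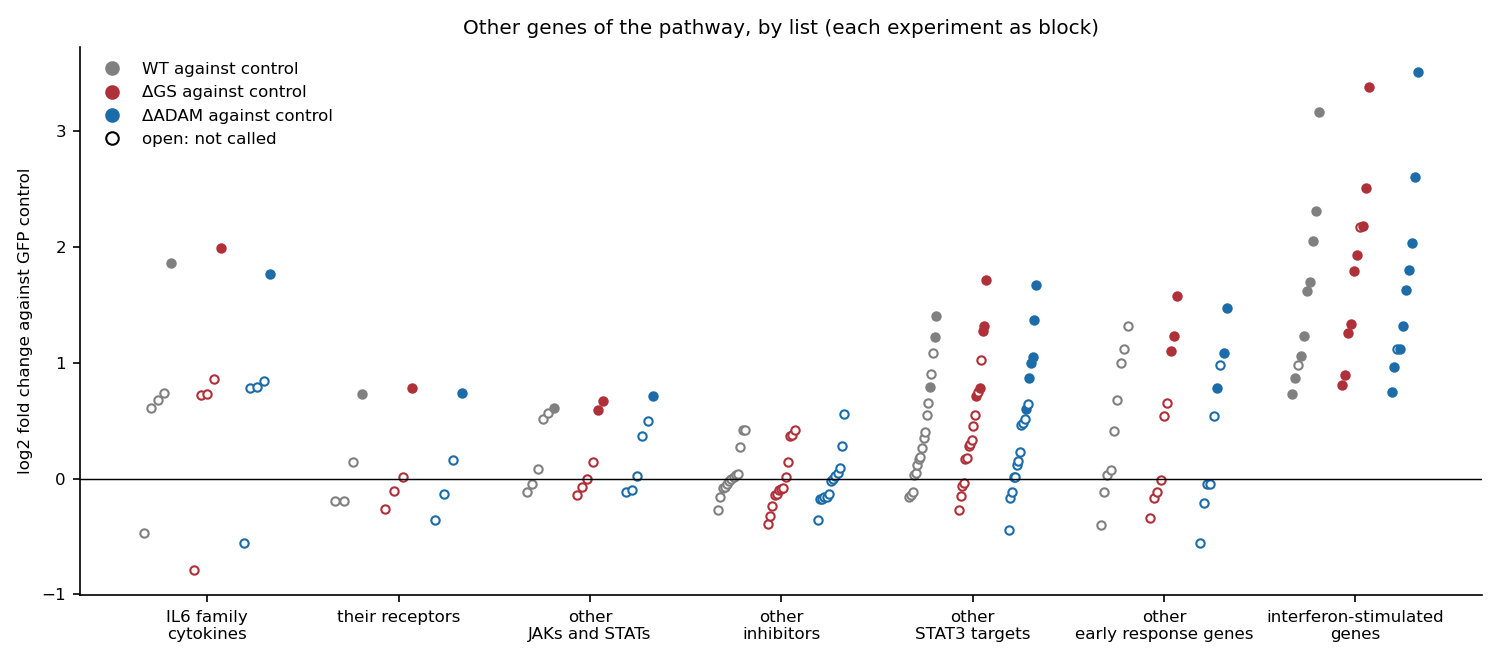
Log2 fold change against the GFP control, with the block, of every tested gene in 7 lists of pathway genes, by construct, where filled symbols were called. The 13 other inhibitors lie around 0 with none called, while 9 of 10 interferon-stimulated genes were called with each construct.

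Over the 12 libraries, with the mean of each experiment removed, the genes most like SOCS3 in log2 CPM were FBXO43 (Pearson r = 0.965), ANKRD20A2 (0.96) and MMP23B (0.959), all at low levels of at most 3.80 CPM. JUNB ranked 6th among all genes (0.947), SOCS1 43rd (0.918) and BCL3 117th (0.902), while STAT3 ran the other way (-0.71). The genes most like STAT3 were POLR2A (0.99), EIF4G1 (0.97) and PRDM10 (0.961). These values describe 12 libraries that share controls, depth and constructs.

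Promoter windows of RefSeq (GRCh38.p14, 250 bases before to 50 after a gene start) were searched for TTCNNNGAA, the palindromic core bound by STAT proteins, which reads alike on both strands. Of the members, 9 had an entry, with 15 windows, and 0 of the 15 held these letters, against 7.66% of 35116 windows in all. A window without them says only that these letters are not within it. The windows of SOCS3 lay on either side of the gene start given above, and did not cover it. That of BCL3 lay inside the gene, away from the start given above. The sequence at these starts of SOCS3 and BCL3 was therefore not searched.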

How the data were processed

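The 12 libraries were made with a stranded mRNA kit, and the authors trimmed the reads and ran kallisto 0.46.0 against Ensembl 96. The deposited values are the expected counts (estimated counts) and TPM that the authors obtained per transcript, before the batch correction and scaling of the study. Whether strand was used is not given in the sources used here. Transcripts were matched by identifier without version to GENCODE 29 (169797 of 188753, 97.4% to 97.5% of counts) and summed per gene. Counts were rounded, scaled by TMM, filtered with filterByExpr (minimum count 10, total 15) and tested by quasi-likelihood in edgeR 4.0.16 (R 4.3.3). Besides the 4 groups, the design had a term for experiment 1 against 2 and 3, or a term per experiment. The labels name a shared experiment, so numbers pair the libraries. Deviations from group means correlated by 0.00671 to 0.482 over 18 same-experiment pairs (over 0.1 in 15). Pairs of a control with a construct ran from 0.00671 to 0.228, and pairs of constructs from 0.295 to 0.482. The pairs of the control of experiment 1 were the lowest, at 0.0458, 0.0542 and 0.00671. A count of 0 was given a floor of 3 counts, and such bounds cover counting error only. Totals per library ran from 4008293 to 38184838. The procedure was tested on simulated data. Alternatives were DESeq2 1.42.0, limma 3.58.1 on log2 TPM (pseudocount 1 or 0.1), RLE size factors, no filter, no batch term, no fold threshold, experiments 2 and 3 alone, and each library left out. Genes named outside the 10 were those called from each list, or the 2 with the largest mean change, plus the 3 most like SOCS3 and STAT3; genes named as not called were added after their values were seen. The members and lists were chosen with earlier results of these data known. From the lists, 1 gene is not reported here and was left out of their counts and medians.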

Additional observations from a re-analysis of the deposited data

How the results depend on the processing

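No alternative called a member in WT TYRO3 against the mean of the variants or in ΔGS against ΔADAM TYRO3, and 1, 0 and 0 members were called with ΔGS, WT and ΔADAM TYRO3 at RLE size factors or with no fold threshold as in the first design. The number called with WT, ΔGS and ΔADAM TYRO3 was 4, 5 and 4 without the filter on low counts, 4, 5 and 2 with DESeq2, and 2, 5 and 3 with the replicate block. The number of members called with ΔGS TYRO3 was 0 on log2 TPM at either pseudocount and without a batch term. Over all 15098 genes, 1 and 6 were called on log2 TPM at pseudocounts of 1 and 0.1, and 4 without a batch term. In experiments 2 and 3 alone with a block, 1 member (SOCS3) was called with ΔGS TYRO3, against 189 of 14960 genes. With each library left out, 0 to 2 members were called with ΔGS TYRO3 and 0 with the others. Over all genes these fits called 1 to 137 with ΔGS, 1 to 20 with WT and 1 to 449 with ΔADAM TYRO3. With a block, chosen after seeing the data, 1 to 6 members were called with ΔGS, 0 to 5 with WT and 0 to 4 with ΔADAM TYRO3. Over all genes the block called 269 to 777, 79 to 606 and 198 to 870, respectively, of 15278 to 15437 tested. The direction reversed for IL6ST with ΔGS TYRO3 on log2 TPM (-0.42 and -0.44), where of the ΔGS libraries only that of experiment 3 lay below its own control. The difference in SOCS2 between ΔGS and ΔADAM TYRO3 was 0.16 in the first design and 0.00 on log2 TPM at either pseudocount, and the cause was not tested. The difference in the beta share of STAT3 ranged from -1.70 to 0.32 points with 1 library left out, was -2.18 in experiments 2 and 3 alone (exact permutation p = 0.286) and -0.44 with labels permuted within experiments, a replicate block (exact permutation p = 0.766). At 4008293 counts, the control of experiment 1 held 0 counts of SOCS1, and a floor of 3 counts allows up to 0.789 CPM there.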
